A study of Mus musculus with 16 samples.

Results

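Pls1, A4gnt, Prss8, Slc39a5, Pdlim2, Gprc5b, Corin and Mas1 are 8 of the 23167 gene identifiers that the male and the female count tables of this liver study share. They were taken from the genes with the largest rises in knockout males, so they were chosen by their male log2 fold changes of LKO over floxed livers, and their male values are given as a description with no test. The rule ranks male rises and compares them with the female table, and the female values are tested. The genes were chosen with earlier results of these data known. The female test can therefore not be shown to be independent of the choice. The study deleted Matr3, which encodes the RNA-binding nuclear matrix protein matrin-3, by breeding floxed mice with mice whose Cre recombinase is driven by the albumin promoter, which is active in hepatocytes. The groups were 4 male knockout (LKO), 4 male floxed, 4 female LKO and 4 female floxed mice, with 1 liver library each. LKO mice carry the floxed alleles and Albumin-Cre, and the floxed littermates carry the same alleles, for which the labels name no Cre. All 16 mice received a high-fat diet (HFD, 60% of energy from fat) from 7 weeks of age for 16 weeks and were fasted for 12 hours before the liver was taken. No chow-fed or Cre-only group enters the comparisons, so effects of the diet or of Cre itself cannot be told apart from the shared setting and the genotype.

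The libraries held between 30495505 and 36496193 counts. Matr3 separated the genotypes in both sexes, with at most 36.5 CPM in LKO males against at least 52.9 CPM in floxed males, and at most 40.3 CPM in LKO females against at least 52.9 CPM in floxed females. CPM, the unit of level used throughout, is the count scaled to library size with TMM factors, which were computed separately for each table. One scaling over all 16 libraries changed library sizes by factors of 0.987 to 0.989 in males and 1.00 to 1.02 in females. Summed hepatocyte markers covered 90900 to 103000 CPM in LKO males and 85800 to 107000 CPM in floxed males. The mouse numbers of floxed males 1 and 2 lie apart from all others, and without them the male log2 fold changes were 2.12 for Pls1, 2.27 for A4gnt, 1.90 for Prss8, 1.67 for Slc39a5, 1.32 for Pdlim2, 2.22 for Gprc5b, 1.58 for Corin and 0.89 for Mas1. P-values set a group difference against the spread between these mice, which the test estimates with the help of all genes tested. In bulk liver a change in the number of cells of a type cannot be told apart from a change in RNA per cell.

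The 8 genes encode proteins of different kinds, several of them best known from organs other than the liver. Prss8 and Corin encode serine proteases anchored at the cell surface that cut other proteins, prostasin acting on the epithelial sodium channel and corin on the precursor of atrial natriuretic peptide. Gprc5b and Mas1 encode receptors of the G protein-coupled class. Slc39a5 encodes a zinc importer, A4gnt a Golgi enzyme of mucin sugar chains, Pls1 an actin-bundling protein of the intestinal brush border, and Pdlim2 an adaptor that promotes the breakdown of transcription factors. Many mouse liver genes differ between the sexes through the pulsed release of growth hormone in males, a signal carried by STAT5.

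The DNA before the start site is shown for the 4 genes that had a RefSeq promoter entry (GRCm38.p6) and whose floxed males and floxed females did not overlap in level. Each line gives the 100 bases before the annotated start, 5′ to 3′ on the gene's strand, and capitals mark the GC box GGGCGG. The stretches are chr9:99612402-99612501 (plus strand) for A4gnt, chr7:118995212-118995311 (minus strand) for Gprc5b, chr17:12868144-12868243 (minus strand) for Mas1 and chr5:72504541-72504640 (minus strand) for Corin.
A4gnt: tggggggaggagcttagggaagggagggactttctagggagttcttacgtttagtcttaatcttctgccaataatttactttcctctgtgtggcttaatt
Gprc5b: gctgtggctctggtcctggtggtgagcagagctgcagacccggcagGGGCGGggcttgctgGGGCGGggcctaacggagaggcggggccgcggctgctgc
Mas1: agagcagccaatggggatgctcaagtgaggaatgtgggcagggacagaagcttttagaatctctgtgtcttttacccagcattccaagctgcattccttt
Corin: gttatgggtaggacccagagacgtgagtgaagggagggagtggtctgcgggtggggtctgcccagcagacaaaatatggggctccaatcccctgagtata

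Short motifs were searched in the DNA before the start sites. With 7 windows, counts this small cannot be told apart from the shares of all windows. The search covered both strands of the 250 bases before each start, in 7 windows that belonged to 6 of the 8 genes (Pls1, A4gnt, Gprc5b, Corin, Mas1 and, with 2 windows, Slc39a5), beside 32851 windows of all genes. Motifs may overlap one another. The STAT5 motif TTCNNNGAA was in 0 of the 7 windows and in 7.02% of all windows. The HNF4 half-site CAAAGT (12.6% of all windows), the direct repeat DR1 (0.0335%), the E-box CACGTG (6.02%) and the TATA box TATAAA (12.4%) were also in 0 of the 7. The GC box GGGCGG, found in 32.7% of all windows, was present at positions -54 and -39 from the start of Gprc5b and in 1 window of Slc39a5. Slc39a5 also held the only HNF1 half-site GTTAAT (6.43% of all windows) and the only C/EBP motif TTGCNNAA (9.56%) of the 7 windows, both on the reverse strand. Guanine and cytosine made up 62.4% of the bases before the start of Gprc5b, above 77.5% of all windows, and 43.6% of those of A4gnt, above 20.1%. A motif match is a description of letters, and a missing match says only that those letters are not in these windows.

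In males the LKO libraries lay above the floxed ones without overlap for all 8 genes, a pattern that entered their choice. Their median log2 fold change was 1.75, against -0.01 over all 15355 genes tested in males, of which 0.528% were called higher and 0.514% lower at an adjusted p under 0.05 (edgeR's quasi-likelihood test) and 3.96% had LKO libraries wholly above floxed ones. By size of rise the 8 genes ranked between 2 and 21 among the 81 genes called higher. The list does not hold every large rise. H19 ranked 1, with a log2 fold change of 2.93 and overlapping LKO and floxed libraries. Cyp2a4, which encodes a steroid hydroxylase, ranked 5, and other genes between ranks 2 and 21 are also not in the list. Mas1 had the smallest log2 fold change of the 8, 1.23, and Arhgap10, the gene next below it, had 1.21.

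In females the same 8 genes showed no rise that passed the test. Of the 6 that had enough counts to be tested, 0 passed the adjusted threshold and 0 had an unadjusted p under 0.05 by edgeR (27.7% of all genes tested did), and DESeq2 and limma-voom called 0 as well. Over all 15432 genes tested in females, 9.29% were called, 4.44% as higher and 4.85% as lower in LKO livers. The LKO and floxed females overlapped for each of the 6, while 7.61% of all genes had every LKO library above every floxed one. Their median log2 fold change in females was 0.21, against 0.00 over all genes, and 5 of the 6 estimates were positive. The difference between the sexes was not tested, because the male values chose the genes.

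**Figure D1:**
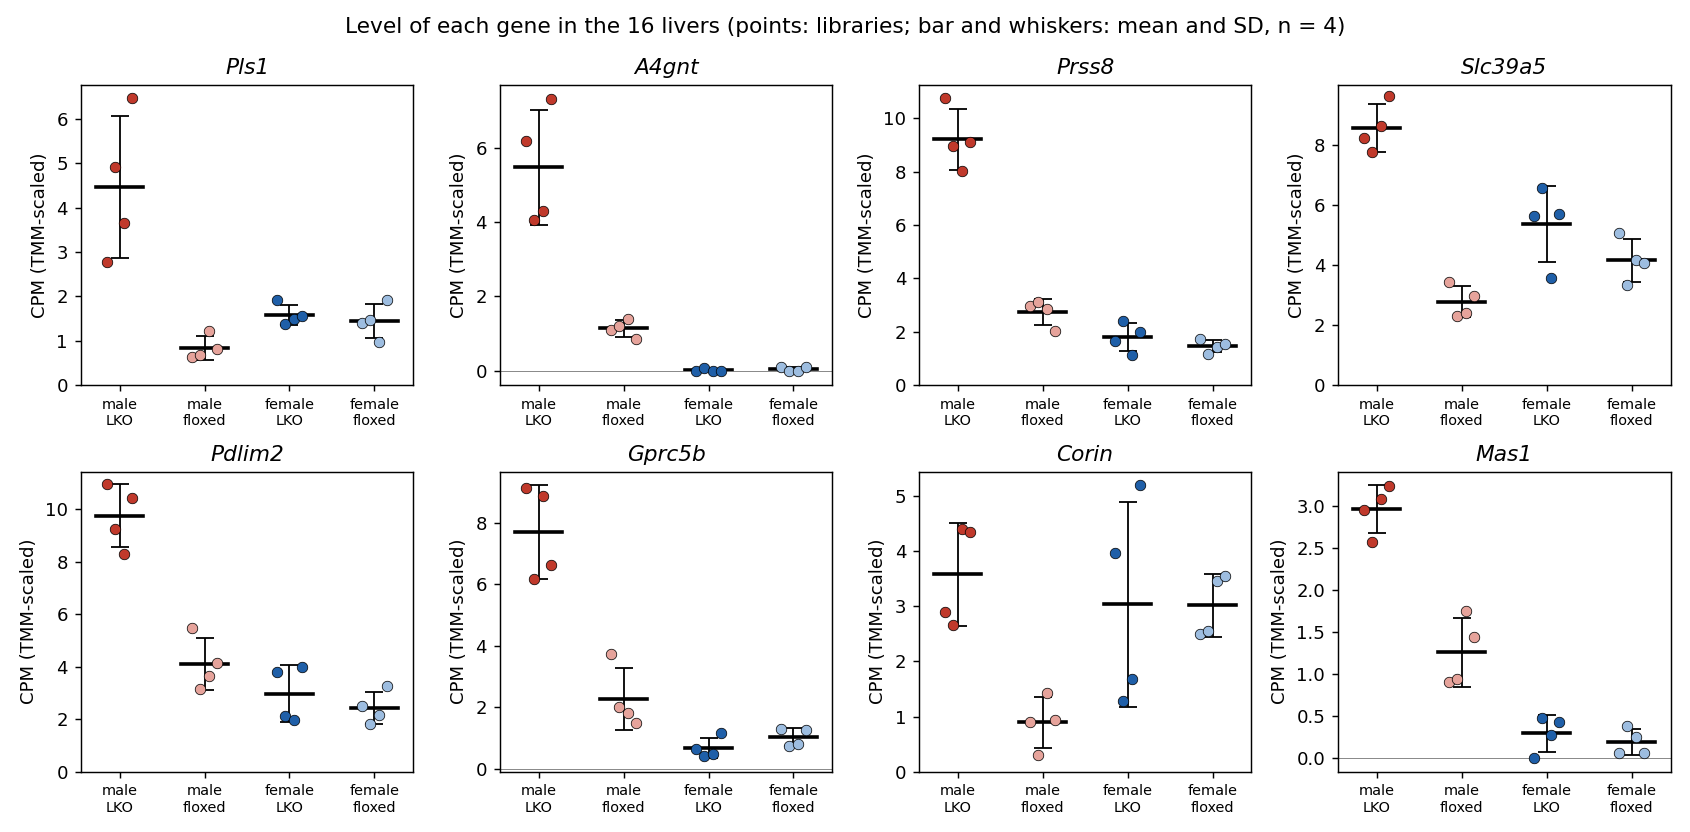
Scaled counts (CPM, linear axes from 0) of each gene in the 16 libraries, LKO left of floxed within males and within females; points are libraries, and bars with whiskers are means with SD, n = 4. The male LKO points stand above the male floxed points in all 8 panels, the female groups overlap, and A4gnt lies near 0 in all 8 females.

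**Figure D2:**
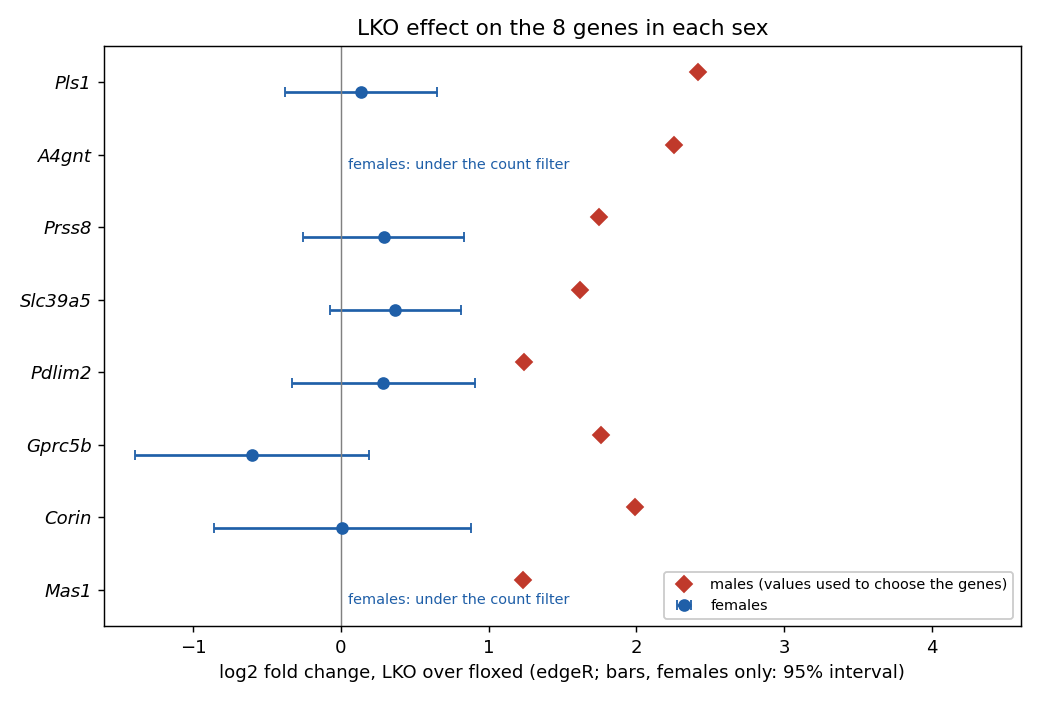
Log2 fold change of LKO over floxed livers (edgeR) for each gene, males as diamonds and females as circles with 95% intervals. Male values lie between 1.23 for Mas1 and 2.42 for Pls1, the 6 female intervals include 0, and A4gnt and Mas1 had too few counts in females to be tested.

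Prss8 (ENSMUSG00000030800; mm10 chr7:127925716-127930104, minus strand) encodes prostasin, a protease tethered to the membrane of epithelial cells. LKO males 5 to 8 had 10.8, 8.96, 8.03 and 9.11 CPM, and floxed males 1 to 4 had 2.97, 3.10, 2.87 and 2.03 CPM. The male means were 9.22 ± 1.14 CPM in LKO and 2.74 ± 0.483 CPM in floxed livers (SD, n = 4 each), and the log2 fold change was 1.75. The lowest male LKO library stood well above the highest floxed one. LKO females had 1.66, 2.39, 1.14 and 1.98 CPM, and floxed females had 1.71, 1.18, 1.42 and 1.54 CPM. The female groups overlapped, with the lowest of the 8 libraries being an LKO one. The female log2 fold change was 0.29 (SE 0.25, 95% interval -0.25 to 0.84, edgeR adjusted p = 0.476). Kat8, which encodes a histone acetyltransferase, overlaps Prss8 on the opposite strand, and the strand setting of the counting is not given in the sources used here, so their shared reads cannot be told apart. Kat8 itself measured 16.5 ± 1.52 CPM in LKO males and 18 ± 0.455 CPM in floxed males (log2 fold change -0.12, edgeR adjusted p = 0.555).

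Genes that act with prostasin on the sodium channel were examined beside it. Of 17 tested genes of surface proteolysis and the sodium channel, 0 were called in males by edgeR, DESeq2 or limma-voom. Over all genes edgeR called 1.04% in males. Of the 17, 2 had an unadjusted edgeR p under 0.05, where 12.3% of all genes did, and the median log2 fold change was -0.02. The 2 were Tmprss4 (log2 fold change 0.82, edgeR adjusted p = 0.229), with every LKO male above every floxed male, and Serpine2 (-0.48, adjusted p = 0.295). In females 3 were called higher and 0 lower, with a median of 0.00. Hpn, which encodes the hepatocyte protease hepsin that activates prostasin, had a male log2 fold change of -0.02 (edgeR adjusted p = 0.955). Spint2, a protease inhibitor gene, had -0.12 (adjusted p = 0.507), and Scnn1a, which encodes the alpha subunit of the channel, had -0.07 (adjusted p = 0.891). In LKO females Egfr, the epidermal growth factor receptor gene, rose to 617 ± 172 CPM, against 158 ± 41.3 CPM in floxed females (SD, n = 4 each; log2 fold change 1.97, SE 0.23, edgeR adjusted p = 0.00367). Nedd4l, which encodes a ubiquitin ligase that removes the channel from the membrane, rose by 1.07 (adjusted p = 0.023), and was not called without LKO 5 (0.0625), floxed 1 (0.0717) or floxed 2 (0.0731). Tmprss2, another surface protease gene, rose by 1.03 (adjusted p = 0.028), and was not called without LKO 5 (0.0812), LKO 8 (0.0662), floxed 1 (0.0866), floxed 2 (0.087) or floxed 3 (0.0738).

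Corin (ENSMUSG00000005220; mm10 chr5:72300025-72504473, minus strand) is best known from heart muscle. In LKO males 5 to 8 it measured 2.90, 2.66, 4.40 and 4.35 CPM, and floxed males 1 to 4 had 0.906, 0.304, 1.43 and 0.939 CPM. Means in males were 3.58 ± 0.927 CPM in LKO and 0.896 ± 0.463 CPM in floxed livers (SD, n = 4 each), and the log2 fold change was 1.99, or 1.58 without floxed 1 and 2. Floxed male 2 was the lowest of all 16 libraries. LKO females had 3.97, 1.29, 1.68 and 5.19 CPM, and floxed females had 2.49, 2.56, 3.46 and 3.55 CPM. The female LKO libraries fell on both sides of the floxed ones, 5 and 8 above and 6 and 7 below. The female log2 fold change was 0.01 (SE 0.39, 95% interval -0.86 to 0.88, edgeR adjusted p = 0.99). Corin was the only gene of the 8 with all 4 floxed males below all 4 floxed females, at 0.297 of the female mean. In LKO males it lay at 1.18 times the mean of LKO females, and those groups overlapped. Heart and skeletal muscle markers summed to 0.707 to 1.38 CPM in LKO males and 0.688 to 1.32 CPM in floxed males, with none of them above the count filter.

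The natriuretic peptide genes themselves, Nppa and Nppb, were not analysed here. Of 9 tested genes of this system in males, 0 were called higher and 1 lower (1 lower with DESeq2, 0 with limma-voom), with a median log2 fold change of 0.08. The gene called was Pcsk5, which encodes a proprotein convertase, at 10.6 ± 0.551 CPM in LKO and 13.5 ± 0.417 CPM in floxed males (log2 fold change -0.35, edgeR adjusted p = 0.0453). Its adjusted p lay between 0.0573 and 0.156 when any 1 of the 8 male libraries was left out. Of 8 tested in females, 0 were called higher and 3 lower, with a median of -0.25. Mme, which encodes the peptidase neprilysin that degrades natriuretic peptides, fell to 12.4 ± 5.13 CPM in LKO females, against 43.3 ± 11.1 CPM in floxed females (log2 fold change -1.80, adjusted p = 0.00788). Pcsk6, which encodes the convertase that activates corin, measured 144 ± 4.72 CPM in LKO and 183 ± 6.31 CPM in floxed females (log2 fold change -0.34, adjusted p = 0.0193), and was not called without LKO 5 (0.062), floxed 1 (0.0516) or floxed 2 (0.0685). Npr1, the receptor gene, measured 7.57 ± 1.86 CPM in LKO and 12.6 ± 0.860 CPM in floxed females (log2 fold change -0.74, adjusted p = 0.023). It was not called without LKO 5 (0.0699), LKO 6 (0.0588), floxed 1 (0.0718), floxed 2 (0.0566) or floxed 3 (0.057). Furin, a further convertase gene, had log2 fold changes of 0.13 in males (adjusted p = 0.595) and 0.27 in females (adjusted p = 0.0948).

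Mas1 (ENSMUSG00000068037; mm10 chr17:12841079-12868143, minus strand) encodes the receptor for a short angiotensin peptide that opposes angiotensin II. The LKO males 5 to 8 showed 2.96, 2.57, 3.09 and 3.24 CPM, and floxed males 1 to 4 had 0.906, 0.943, 1.76 and 1.44 CPM. On average males had 2.96 ± 0.286 CPM in LKO and 1.26 ± 0.410 CPM in floxed livers (SD, n = 4 each), and the log2 fold change was 1.23. The floxed males with the outlying mouse numbers were the lowest ones, and without them the log2 fold change was 0.89. LKO females 5 to 8 had 0, 15, 9 and 14 raw counts, and floxed females 1 to 4 had 2, 13, 8 and 2 counts, too few for the test. The female groups overlapped, and 1 LKO library had no count. With no filter the female log2 fold change was 0.62 (edgeR adjusted p = 0.702), which depends on the prior count. Mas1 counts summed to 409 in LKO males and 38 in LKO females, a rate ratio of 10. In floxed mice they summed to 169 in males and 25 in females, a ratio of 6.53. Both ratios are descriptions without a test, since the male values entered the choice of the genes.

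The noncoding RNA gene Airn overlaps Mas1 on the opposite strand. The strand setting of the counting is not given, so reads shared by Airn and Mas1 cannot be told apart. Airn measured 1.80 ± 0.392 CPM in LKO males and 1.55 ± 0.863 CPM in floxed males (SD, n = 4 each; log2 fold change 0.21, edgeR adjusted p = 0.881). In females it measured 2.16 ± 0.812 CPM in LKO and 0.760 ± 0.229 CPM in floxed livers (log2 fold change 1.50, SE 0.31, adjusted p = 0.0205), and it was not called without LKO 5 (0.0541), floxed 1 (0.0672) or floxed 3 (0.0555). Of 12 tested genes of the renin-angiotensin system in males 0 were called by edgeR or limma-voom and 1, as higher, by DESeq2 (3 had an unadjusted edgeR p under 0.05), with a median log2 fold change of 0.06. Of 13 in females 0 were called higher and 1, Mme, lower, with a median of -0.05. Agt, which encodes the precursor angiotensinogen, measured 556 ± 37.8 CPM in LKO males and 587 ± 52.4 CPM in floxed males (log2 fold change -0.08, adjusted p = 0.758), and in females its log2 fold change was -0.09 (adjusted p = 0.568). Agtr1a, the angiotensin II receptor gene, had -0.22 in males (adjusted p = 0.40) and 0.27 in females (adjusted p = 0.10).

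Gprc5b (ENSMUSG00000008734; mm10 chr7:118972047-118995211, minus strand) encodes an orphan receptor of a family named for its response to retinoic acid. Levels in LKO males 5 to 8 were 9.13, 6.15, 8.86 and 6.64 CPM, and floxed males 1 to 4 had 3.74, 2.01, 1.81 and 1.47 CPM. Averaged over males, levels were 7.70 ± 1.52 CPM in LKO and 2.26 ± 1.01 CPM in floxed livers (SD, n = 4 each), and the log2 fold change was 1.76. Floxed male 1 was the highest floxed library, and without floxed 1 and 2 the log2 fold change was 2.22. LKO females had 0.625, 0.419, 0.480 and 1.14 CPM, and floxed females had 1.28, 0.736, 0.787 and 1.26 CPM. Of the 6 genes tested in females Gprc5b had the only negative estimate, -0.60 (SE 0.36, 95% interval -1.39 to 0.19, edgeR adjusted p = 0.304), which was -0.99 without LKO 8 (adjusted p = 0.109). Every male library was above every female library, with means 11.5 times as high in LKO males as in LKO females and 2.23 times as high in floxed males as in floxed females. Its relative Gprc5c measured 56.8 ± 4.58 CPM in LKO males and 57.3 ± 8.05 CPM in floxed males (log2 fold change -0.01, adjusted p = 0.979), and its female log2 fold change was 0.12 (adjusted p = 0.304). Of 11 tested genes of these receptors and the retinoic acid response, 0 were called in males by edgeR or limma-voom. DESeq2 called 1, as higher, and 1 had an unadjusted edgeR p under 0.05 (median log2 fold change 0.02). The gene with that edgeR p was Rarb, at 3.89 ± 0.436 CPM in LKO and 2.38 ± 0.462 CPM in floxed males. Its log2 fold change was 0.71 (edgeR adjusted p = 0.0805), and every LKO male lay above every floxed male. In females 0 were called higher by all 3 tools, and 1 was called lower by edgeR, 2 by DESeq2 and 0 by limma-voom (median -0.18). Iqck, which overlaps Gprc5b on the opposite strand, had 55 counts in all 8 males together, and their shared reads cannot be told apart. The gene called lower was Aldh1a1, which encodes an enzyme that makes retinoic acid (log2 fold change -0.74, edgeR adjusted p = 0.0487, and 0.0526 with limma-voom). It was not called without LKO 5 (0.124), LKO 6 (0.0944), LKO 8 (0.097), floxed 1 (0.118), floxed 2 (0.119) or floxed 3 (0.123).

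Slc39a5 (ENSMUSG00000039878; mm10 chr10:128395931-128401229, minus strand) encodes a zinc importer known from intestine and pancreas. LKO males 5 to 8 had 8.21, 7.76, 8.65 and 9.63 CPM, and floxed males 1 to 4 had 3.43, 2.31, 2.40 and 2.97 CPM. The male means were 8.56 ± 0.797 CPM in LKO and 2.78 ± 0.522 CPM in floxed livers (SD, n = 4 each), and the log2 fold change was 1.62. The coefficient of variation of the LKO males was 9.3%, where counting error alone gives 5.81%. LKO females had 5.63, 6.58, 3.57 and 5.69 CPM, and floxed females had 5.08, 3.33, 4.15 and 4.05 CPM. Of the 4 LKO females 3 lay above all 4 floxed females, and LKO female 7 lay among them. The female log2 fold change was 0.37 (SE 0.20, 95% interval -0.07 to 0.81, edgeR adjusted p = 0.259), and it was 0.52 without LKO 7 (adjusted p = 0.0584). Ankrd52, on the opposite strand, overlaps Slc39a5, and with the strand setting not given their shared reads cannot be told apart. Ankrd52 measured 34.4 ± 1.75 CPM in LKO males and 33.7 ± 4.37 CPM in floxed males (log2 fold change 0.03, edgeR adjusted p = 0.944). In females Ankrd52 measured 50.3 ± 2.04 CPM in LKO and 41.0 ± 4.42 CPM in floxed livers (log2 fold change 0.30, adjusted p = 0.0565).

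Of 22 tested zinc transporter and metallothionein genes in males 0 were called by edgeR, DESeq2 or limma-voom (2 had an unadjusted edgeR p under 0.05), with a median log2 fold change of -0.05. Of 23 in females 3 were called higher and 1 lower, with a median of 0.13. Mt1, which encodes a zinc-binding metallothionein, rose to 983 ± 362 CPM in LKO females, against 344 ± 71.9 CPM in floxed females (log2 fold change 1.52, edgeR adjusted p = 0.0112). In males it measured 147 ± 42.9 CPM in LKO and 209 ± 137 CPM in floxed livers (log2 fold change -0.51, adjusted p = 0.663). Mt2, its close relative, rose by 1.66 in LKO females (adjusted p = 0.0355), and was not called without LKO 5 (0.0793), LKO 6 (0.0849), LKO 8 (0.0772), floxed 1 (0.103), floxed 2 (0.101) or floxed 4 (0.051). The transporter gene Slc30a5 rose by 0.28 (adjusted p = 0.0436), and was not called without LKO 5 (0.107), LKO 6 (0.099), LKO 8 (0.0852), floxed 1 (0.113), floxed 2 (0.103), floxed 3 (0.0907) or floxed 4 (0.0516). Slc39a11 fell by 0.31 (adjusted p = 0.044), and was not called without LKO 5 (0.104), LKO 6 (0.0697), LKO 7 (0.0511), LKO 8 (0.107), floxed 1 (0.0886), floxed 2 (0.0888) or floxed 3 (0.114). Slc39a14, the main zinc importer gene of hepatocytes during inflammation, had -0.11 in males (adjusted p = 0.768) and 0.37 in females (adjusted p = 0.0549).

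A4gnt (ENSMUSG00000037953; mm10 chr9:99612502-99622367, plus strand) encodes the transferase that caps mucin sugar chains with N-acetylglucosamine in gastric gland cells. In LKO males 5 to 8 it measured 6.18, 4.06, 4.31 and 7.32 CPM, and floxed males 1 to 4 had 1.10, 1.22, 1.40 and 0.845 CPM. Means in males were 5.47 ± 1.55 CPM in LKO and 1.14 ± 0.234 CPM in floxed livers (SD, n = 4 each), and the log2 fold change was 2.25. In raw counts LKO males had 215, 136, 141 and 269, and floxed males had 39, 40, 48 and 27. In females A4gnt was close to undetected, with 0, 2, 0 and 0 counts in LKO libraries and 3, 0, 0 and 3 counts in floxed libraries, so no effect of the deletion could be detected at this depth. Summed counts were 761 in LKO males and 2 in LKO females, a rate ratio of 355. In floxed mice they were 154 in males and 6 in females, a ratio of 24.8. These ratios carry no test, since the male values entered the choice of the genes.

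The mucins that carry such sugar chains in the stomach were not seen at similar levels. Muc6, the main gastric gland mucin gene, had 1 count in all LKO males together and 3 in floxed males, and Tff2, which encodes a peptide secreted with it, had 12 and 4 in the same groups. Gastric and intestinal epithelium markers summed to 224 to 276 CPM in LKO males and 191 to 232 CPM in floxed males, of which Fabp2, a fatty acid-binding protein gene, made up nearly all. Of the 16 listed markers 4 were tested in males and 0 called, and Gkn1, Gkn2, Pgc, Cdx2 and Alpi had no counts to analyse here. Of 24 tested genes of mucin-type O-glycosylation, 1 was called higher and 0 lower in males (median log2 fold change 0.04), and 1 was called higher and 0 lower in females (median 0.07). The male one was Galnt4, which encodes a member of the enzyme family that starts such chains (log2 fold change 0.37, SE 0.07, edgeR adjusted p = 0.0391). It was not called without LKO 5 (0.104), LKO 6 (0.113), LKO 7 (0.0892), LKO 8 (0.114), floxed 1 (0.0756), floxed 2 (0.0704) or floxed 4 (0.0662). The female one was the sialyltransferase gene St3gal2 (log2 fold change 0.99, SE 0.19, adjusted p = 0.016). A4galt, a related glycosyltransferase gene that acts on glycolipids, had log2 fold changes of -0.69 in males (adjusted p = 0.435) and 0.94 in females (adjusted p = 0.167).

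Pls1 (ENSMUSG00000049493; mm10 chr9:95752642-95845311, minus strand) encodes plastin 1, also called fimbrin, which ties actin filaments into the bundles of microvilli. The LKO males 5 to 8 showed 2.79, 4.93, 3.67 and 6.47 CPM, and floxed males 1 to 4 had 0.623, 0.669, 1.23 and 0.814 CPM. On average males had 4.46 ± 1.60 CPM in LKO and 0.834 ± 0.276 CPM in floxed livers (SD, n = 4 each), and the log2 fold change was 2.42. LKO males varied more among themselves than for any other gene of the 8, with a coefficient of variation of 35.9% where counting error alone gives 8.03%. LKO females had 1.91, 1.39, 1.50 and 1.55 CPM, and floxed females had 1.40, 1.47, 0.976 and 1.92 CPM. The female LKO libraries lay within the range of the floxed ones, and the log2 fold change was 0.14 (SE 0.23, 95% interval -0.37 to 0.65, edgeR adjusted p = 0.735). The other plastin genes were Pls3, at 95.2 ± 3.53 CPM in LKO males and 107 ± 2.82 CPM in floxed males (log2 fold change -0.18, adjusted p = 0.176), and Lcp1, the plastin gene of blood cells (-0.02, adjusted p = 0.949). Of 13 tested plastin and brush-border genes 0 were called in males by edgeR, DESeq2 or limma-voom (2 had an unadjusted edgeR p under 0.05; median log2 fold change 0.01). In females 0 were called higher and 1 lower by edgeR, and 2 higher and 2 lower by DESeq2 (median 0.04). That gene was Rdx, which encodes the actin linker radixin of bile canaliculi (log2 fold change -0.38, adjusted p = 0.0454). It was not called without LKO 5 (0.127), LKO 6 (0.0963), LKO 8 (0.104), floxed 1 (0.0818), floxed 2 (0.132) or floxed 3 (0.116).

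Pdlim2 (ENSMUSG00000022090; mm10 chr14:70164218-70177681, minus strand) encodes a PDZ and LIM domain protein that marks RELA and STAT4 for degradation. Levels in LKO males 5 to 8 were 11.0, 9.26, 8.31 and 10.4 CPM, and floxed males 1 to 4 had 5.46, 3.16, 3.66 and 4.16 CPM. Averaged over males, levels were 9.75 ± 1.20 CPM in LKO and 4.11 ± 0.990 CPM in floxed livers (SD, n = 4 each), and the log2 fold change was 1.24. LKO females had 3.82, 2.13, 1.98 and 3.99 CPM, and floxed females had 2.49, 1.82, 2.17 and 3.27 CPM. LKO females 5 and 8 were the highest of the female libraries, as they were for Corin, and the other LKO females lay among the floxed ones. The female log2 fold change was 0.29 (SE 0.28, 95% interval -0.33 to 0.91, edgeR adjusted p = 0.536). Of 9 tested PDZ-LIM and RELA/STAT4 pathway genes in males 0 were called by edgeR, DESeq2 or limma-voom (1 had an unadjusted edgeR p under 0.05; median log2 fold change -0.08). Of 11 in females 0 were called higher and 1 lower (median 0.08). Pdlim1, a relative of Pdlim2, had -0.21 in males (adjusted p = 0.282).

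**Figure D3:**
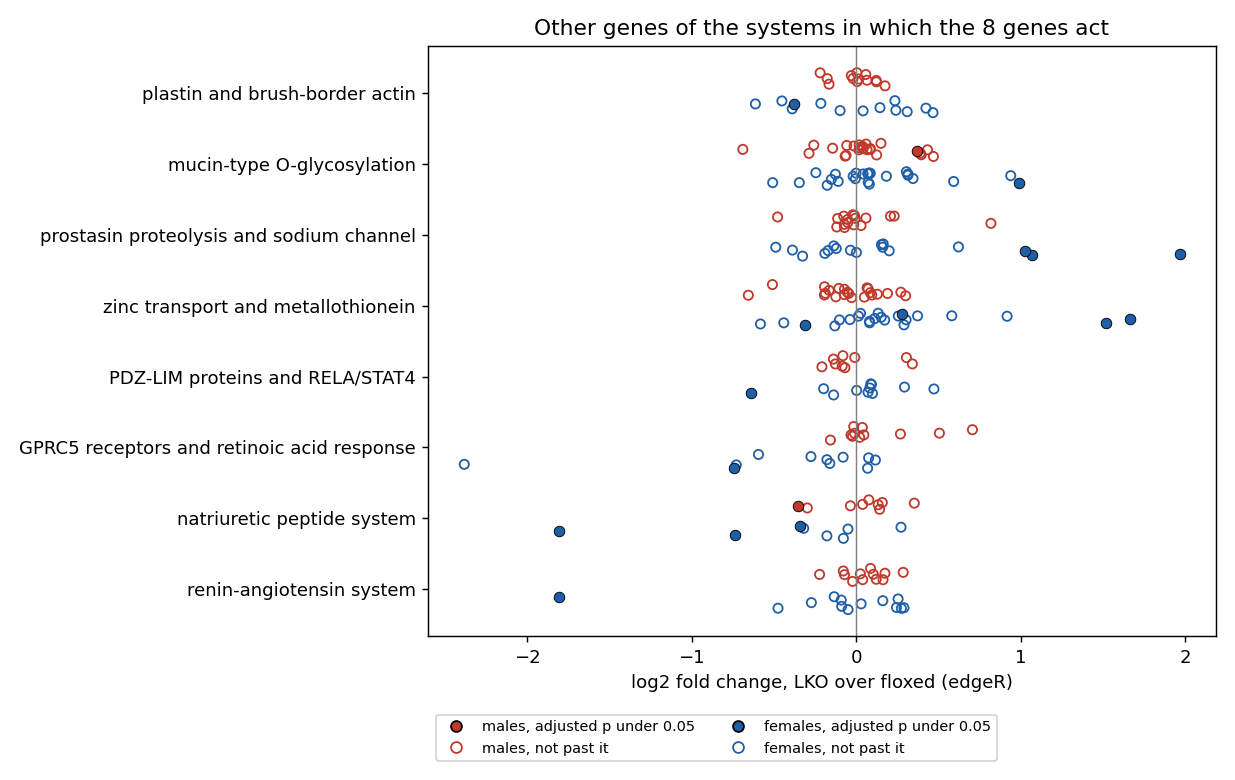
Log2 fold change of LKO over floxed livers (edgeR) for the tested genes of 8 lists of related genes, males in red above females in blue; filled points have an adjusted p under 0.05. In males 2 of 116 genes are filled (Galnt4 and Pcsk5), and in females 14 of 119, 7 to each side, with Mme drawn in both lists that hold it.

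Across the 8 lists of related genes, 116 different genes were tested in males and 119 in females. In males 1 was called higher and 1 lower, which is 1.72% of them, beside 1.04% of all genes tested, and their median log2 fold change was 0.01. In females 7 were called higher and 7 lower, which is 11.8% of them, beside 9.29% of all genes. The 1433 genes called in females became 396 (without floxed 1) to 2300 (without LKO 7) when 1 library was left out, and the 160 called in males became 69 (without LKO 8) to 179 (without floxed 4).

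Of the nearest tested genes on either side of each of the 8 genes, 0 of 16 were called in males by edgeR (3 had an unadjusted p under 0.05), where 1.04% of all genes were called and 12.3% had such a p. Of the 16, 0 were called by limma-voom and 1, Sorbs3, by DESeq2. The largest male estimate among them was 0.60 for Dzip1l, a cilium gene 7.13 kb from A4gnt (edgeR adjusted p = 0.381). Nabp2, a DNA-repair gene 0.166 kb from Slc39a5, had -0.04 (adjusted p = 0.875), and Prss36, a protease gene 2.53 kb from Prss8, had -0.11 (adjusted p = 0.733). Pls1 lay between Trpc1, a channel gene with a male log2 fold change of 0.01, and Atr, a checkpoint kinase gene with 0.16. In females 1 of 16 was called, Sorbs3, an adhesion adaptor gene 2.79 kb from Pdlim2, at a log2 value of 0.52 (SE 0.07, adjusted p = 0.0055). In males Sorbs3 had -0.31 (SE 0.07, adjusted p = 0.0888, and 0.0176 with DESeq2), the opposite sign to Pdlim2 beside it.

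**Figure D4:**
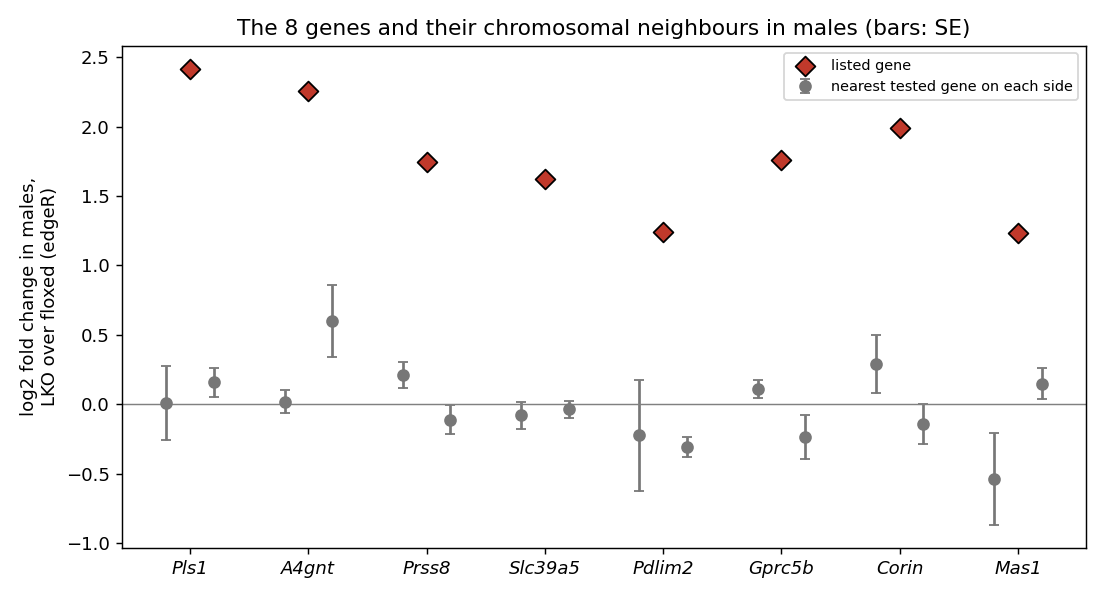
Male log2 fold change of LKO over floxed livers (edgeR) for the 8 genes (diamonds) and for the nearest tested gene on each side (circles, bars are SE). The diamonds lie between 1.23 and 2.42, and all neighbours lie between -0.54 and 0.60.

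In the floxed mice the 8 genes differed in how males and females compared. Over the 15852 genes held in both tables and tested in at least 1, floxed males lay wholly above floxed females for 10.5% and wholly below for 13.9%, and LKO males lay wholly above LKO females for 18.4%. Floxed males lay above floxed females without overlap for A4gnt (24.4 times the female mean), Mas1 (6.64 times), Gprc5b (2.23 times) and Prss8 (1.88 times), and below them for Corin. For Pdlim2 (1.69 times), Slc39a5 (0.669 times) and Pls1 (0.579 times) the floxed groups of the sexes overlapped. In LKO mice every male lay above every female for 7 of the 8 genes, at 1.60 times the female mean for Slc39a5, 2.82 for Pls1, 3.27 for Pdlim2, 5.15 for Prss8, 9.98 for Mas1, 11.5 for Gprc5b and 339 for A4gnt. These ratios are descriptions across separately scaled tables. Nothing is read from these counts, since the male values entered the choice of the genes. For A4gnt the female means rest on 2 counts in all LKO and 6 in all floxed libraries, so the size of its ratios is poorly determined.

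Per kilobase of exon, the levels of the 8 genes were low in every group. LKO males ranged from 0.662 CPM per kb for Corin to 4.98 for Prss8, with Slc39a5 at 3.85, Pdlim2 at 2.17, A4gnt at 1.98, Gprc5b at 1.66, Pls1 at 1.15 and Mas1 at 1.13. Floxed males ranged from 0.166 CPM per kb for Corin to 1.48 for Prss8. LKO females ranged, among the 6 tested genes, from 0.144 CPM per kb for Gprc5b to 2.41 for Slc39a5, and floxed females from 0.219 for Gprc5b to 1.87 for Slc39a5. Raw counts of the 8 genes in male libraries lay between 10 and 384.

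Within a sex and genotype, pairs of the 8 genes varied together to different degrees. These correlations are of deviations from group means over 8 libraries, which share depth and scaling, and carry no test. In males 17 of the 28 pairs were positive, with a median Pearson r of 0.13, from -0.61 for Pls1 and Gprc5b to 0.80 for Slc39a5 and Pdlim2. In females 13 of the 15 pairs of the 6 tested genes were positive, with a median of 0.37 and a lowest value of -0.058, and the highest values were 0.95 for Prss8 and Slc39a5, 0.85 for Pdlim2 and Corin and 0.84 for Pdlim2 and Gprc5b.

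Over all 16 libraries the closest companions of each gene were taken by Pearson correlation of log2 CPM, a measure that takes in both the sex difference and the knockout effect. A4gnt ran closest to Taldo1, a pentose phosphate enzyme gene (r = 0.967), and Adgrv1, an adhesion receptor gene (0.965). In females A4gnt (2 counts in all LKO and 6 in all floxed libraries) and Mas1 (38 and 25) lay near the floor set by the prior count. The r values of these genes therefore take in the contrast of males with females at that floor. Gprc5b ran closest to Me1, which encodes malic enzyme (0.946), and Fam213a (0.939), and Pdlim2 also to Fam213a (0.915). Prss8 ran closest to the decoy receptor gene Tnfrsf23 (0.931) and Lztr1 (0.928), and Mas1 to Sytl4, a vesicle gene (0.944), and Them6 (0.916). Pls1 ran closest to Arhgap10 (0.884) and H19 (0.808), and Slc39a5 to Crybg2 (0.886) and then Arhgap10 (0.866). Corin ran closest to Fam20b (0.813).

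Markers of other cell types stood as follows beside the male values. Cholangiocyte markers summed to 140 to 180 CPM in LKO males and 126 to 148 CPM in floxed males, with 0 of 11 tested called by edgeR, DESeq2 or limma-voom (1 had an unadjusted edgeR p under 0.05). Adipocyte markers summed to 109 to 142 CPM in LKO males and 68.5 to 84.9 CPM in floxed males, without overlap between the groups and with 0 of 5 tested called by edgeR or limma-voom and 4, all higher, by DESeq2 (5 had an unadjusted edgeR p under 0.05), and Lep had no counts to analyse here. Adipoq and Plin1, which define fat cells, had 1 and 5 counts in all LKO males together, against 4 and 3 in all floxed males. The sum came from Pparg, Cfd, Lipe, Aqp7 and Fabp4, led by Cfd, the complement factor D gene, at 46.5 ± 14.6 CPM in LKO and 17.6 ± 8.85 CPM in floxed males (log2 fold change 1.40, edgeR adjusted p = 0.0985). Pancreatic acinar markers summed to 8.95 to 10 CPM in LKO males and 12.1 to 15.3 CPM in floxed males, and 9 of the 15, among them Cpa1, Cpb1, Ctrb1, Prss2 and Pnlip, had no counts to analyse here. Cela1, the elastase gene that makes up most of that sum, was the 1 tested, at -0.48 on the log2 scale (edgeR adjusted p = 0.0475), and it was not called without LKO 5 (0.109), LKO 6 (0.113), LKO 7 (0.134), LKO 8 (0.164), floxed 1 (0.0769), floxed 2 (0.0782) or floxed 3 (0.101). In females cholangiocyte markers summed to 73.7 to 111 CPM in LKO and 130 to 145 CPM in floxed livers. The part of other cell types in the values of the 8 genes was not tested.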

How the data were processed

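Per the labels' protocols, RNA of 16 livers was taken up in TRIzol and Novogene prepared strand-directional libraries after poly(A) enrichment. The authors deposited whole-number counts per Ensembl gene, 1 table for each sex, on mm10 per the submitters' processing notes. Which aligner and counting program were used, and with which strand setting, is not given in the sources used here. In all there were 24623 identifiers for males, 24840 for females and 23167 common ones. Gene names and positions came from GENCODE M21 and promoters from RefSeq.

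Groups follow the labels. In a separate fit per sex, edgeR 4.0.16 (R 4.3.3) kept genes by filterByExpr with a count of at least 10 and a total of at least 15, applied TMM scaling and ran its two-sided quasi-likelihood test on all of them. Genes with a Benjamini-Hochberg adjusted p under 0.05 were called. Rate ratios of summed counts are descriptions without a test. The procedure was tested on simulated data with a fixed dispersion and with changes placed only in genes above a mean-count cut. It therefore gives no assurance for genes with fewer counts. The 8 genes, the 23 gene lists and the tests were chosen with earlier results of these data known.

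Named were the 8 genes, the nearest tested gene on each side, up to 4 called genes with the smallest p per list and sex, direct partners of the 8 by textbook role, and for each of the 8 the 2 named genes with the most similar log2 CPM (prior count 2). A few genes picked this way are left unreported. Alternatives were DESeq2 1.42.0, limma-voom (limma 3.58.1), median-of-ratios scaling, library totals, robust dispersion, no filter, at least 1 CPM in 4 libraries, a fit of all 16 libraries, omission of each library, and omission of male floxed 1 and 2 or of female floxed 4 and LKO 7 together.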

Additional observations from a re-analysis of the deposited data

Results flagged for a closer look

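In 176 groups of 4 libraries, 14 had 1 library far from the other 3 by Dixon's criterion, which chance meets in about 1 in 20 groups. Among the 8 genes the 1 such value was A4gnt in LKO female 6, at 0.0645 CPM from 2 counts, with 0 in the other LKO females. Among the other genes named, LKO male 6 stood at 7.35 CPM for Tmprss2 (others 5.26 to 5.36), LKO male 5 at 31.8 CPM for Ankrd52 (35.2 to 35.3), LKO female 6 at 837 CPM for Agt (725 to 737) and LKO female 7 at 51.7 CPM for Aqp1 (24.9 to 28.2). Floxed male 4 stood at 79.0 CPM for Lcp1 (90.2 to 90.4), 665 CPM for Agt (551 to 568) and 17.8 CPM for Pdlim1 (21.0 to 21.3), and floxed male 2 at 91.9 CPM for Mme (71.7 to 74.7). Floxed female 1 stood at 38.2 CPM for Slc30a5 (41.1 in the others), 21.2 CPM for Pdlim1 (19.6 to 19.9) and 0.872 CPM for A4galt (0.345 to 0.353). Floxed female 3 stood at 24.0 CPM for Slc39a11 (20.5 to 20.8), and floxed female 4 at 49.8 CPM for Spint2 (62.1 to 64.5).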

How the results depend on the processing

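Of the 8 genes, 0 were called in females under any of the 17 alternatives, which tested 5 to 8 of them. A4gnt was tested in 2 and Mas1 in 8 of these, Gprc5b in 16 and the other 5 in 17. In females 1433 genes were called (685 higher, 748 lower), against 2415 with DESeq2, 2854 in the 16-library fit and 3028 without floxed 4 and LKO 7. Library totals without TMM gave 449 higher and 1240 lower. Leaving out 1 library gave 396 (floxed 1) to 2300 (LKO 7), and 475 (floxed 2), 509 (LKO 5), 622 (LKO 6), 666 (floxed 3) and 685 (LKO 8). In males 160 genes were called, against 518 with DESeq2, 229 without floxed 1 and 2 and 97 in the 16-library fit, and leaving out 1 library gave 69 (LKO 8) to 179 (floxed 4), and 71 (LKO 5), 77 (LKO 6), 86 (LKO 7) and 95 (floxed 3). The choice of the 8 genes fixed their male calls, so their number when 1 library was left out, 5 (without LKO 5) to 8, is a description only. The cause was not tested. Over the 17 alternatives the male log2 fold changes of the 8 genes stayed positive, from 0.89 for Mas1 to 2.67 for Pls1. In females Corin ranged from -0.38 to 0.30. No paired analysis was possible because the labels used here assign no mouse to a litter or pair. The replicate numbers, 1 to 4 for floxed and 5 to 8 for LKO mice in each sex, give no pairing. Any shared litters are not accounted for. With 4 mice a group, the female 95% intervals are wide. They reach up to a fold of 1.88 for Pdlim2 and 1.84 for Corin, and down to a fold of 0.382 for Gprc5b.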

Other observations

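Lists of liver genes that hold none of the 8 genes are given as counts of calls by edgeR. Of the lipogenesis genes, 5 were called higher and 0 lower of 19 tested in males (median log2 fold change 0.50), and 0 higher and 8 lower of 20 in females (median -0.54). Of the lipid droplet genes, 2 were called higher and 0 lower in each sex, of 15 tested in males and 14 in females. Of the female-biased liver genes, 1 was called higher and 0 lower of 22 in males, and 2 higher and 16 lower of 30 in females (median -0.96). Of the male-biased liver genes, 0 were called higher and 2 lower of 23 in males, and 6 higher and 1 lower of 20 in females. The share of all genes called was 1.04% in males and 9.29% in females, and the difference between the sexes was not tested for these lists.

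Among markers of liver cell types, 4 of 14 hepatocyte markers were called higher and 2 lower in females and 0 in males. Sinusoidal endothelium markers were called lower for 7 of 12 in LKO females, summing to 238 to 298 CPM in LKO and 314 to 354 CPM in floxed females, and 0 of 12 were called in males by edgeR, DESeq2 or limma-voom (2 had an unadjusted edgeR p under 0.05). Stellate and fibroblast markers were called lower for 2 of 12 in females and 0 of 12 in males, where 0 had an unadjusted edgeR p under 0.05. Cholangiocyte markers were called lower for 2 of 11 in females, Aqp1 (log2 fold change -1.04, adjusted p = 0.019) and Epcam (-0.87, adjusted p = 0.048). Aqp1 was not called without LKO 5 (0.0599), LKO 6 (0.0546), floxed 1 (0.0562) or floxed 2 (0.057), and Epcam was not called without any 1 library other than floxed 4 (up to 0.136). Kupffer and macrophage, lymphocyte and neutrophil, and proliferation markers were called 0 times in both sexes by edgeR and limma-voom, and DESeq2 called 2 proliferation markers lower in females. In females 2 Kupffer and macrophage, 0 lymphocyte and neutrophil and 5 proliferation markers had an unadjusted edgeR p under 0.05, and in males 0, 2 and 0 did. Lymphocyte and neutrophil markers summed to 25.8 to 122 CPM in LKO males and 24.8 to 40.1 CPM in floxed males.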
